A study of Mus musculus with 4 samples.

Results

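Expression of 5 genes was followed, Sbp, Tgm4, Pate4, Pbsn and Msmb, which encode secretory proteins that mouse prostate and seminal glands release into semen. They were chosen by name, each has a single RefSeq ID in the count tables (NM_011321, NM_177911, NM_020264, NM_017471 and NM_020597 in that order), and they make up 5 of 23003 gene symbols and 5 of 30794 RefSeq IDs. Their RNA was measured in mTEChi, the medullary thymic epithelial cells (mTECs) with high MHC class II, sorted as CD45-, Ly51- and I-A/E high. RNA-seq was performed on 4 libraries, each from a pool of 4 B6 mice at 4 weeks of age. A first experiment and a replicate experiment (experiments 1 and 2) each gave 1 WT and 1 Aire-KO library. WT mice were bought from a commercial breeder, and the Aire-deficient mice (genotype Aire-/-, called Aire-KO here) came from another laboratory, so that genotype and colony cannot be told apart. The sex of the mice is not stated. In bulk RNA of sorted cells, fewer cells that transcribe a gene and less RNA per cell cannot be told apart.

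Medullary thymic epithelial cells transcribe a large set of genes whose products otherwise belong to peripheral tissues, and they display the resulting peptides to developing T cells. The Aire protein drives transcription of many of these genes, and in its absence T cells reactive to such products can escape deletion. Secretory proteins of the male accessory glands are made under androgen control in their own tissue, and autoantibodies to the prostate protein TGM4 occur in patients who lack AIRE. Sbp, spermine-binding protein, is an androgen-dependent secretion of the mouse ventral prostate. Tgm4 is the transglutaminase of the prostate, which cross-links seminal proteins in the rodent copulatory plug. Pbsn, probasin, is a lipocalin of the rodent prostate, and Msmb is beta-microseminoprotein, an abundant prostatic secretion. Pate4 is a small cysteine-rich secreted protein of the Ly6/uPAR type, one of a gene family expressed in prostate, testis and epididymis.

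Short stretches of sequence show what stands before the start sites of some of these genes. RefSeq promoter windows (GRCm38.p6, 250 bases before to 50 after a start site) were given for Tgm4 (1 window), Pbsn (1) and Sbp (3). They were searched on both strands for TATAAA, the TATA box letters, CCAAT, and AGAACA, an arm of the palindromic steroid hormone response element, and no hit of 1 motif overlapped a hit of another. The 30 bases around 3 of the matches are shown because they differ between members, with the motif in capitals.
Tgm4, TATAAA at -30 from the start site, chr9:123034699-123034728, + strand: aacccaggagcaTATAAAaaggggccacat
Pbsn, TATAAA at -59, chrX:77853542-77853571, - strand: ctgaaagccaacTATAAAaagcagagagat
Pbsn, AGAACA at -95, chrX:77853578-77853607, - strand: caactgggatgcAGAACActgctcacgcca
TATAAA stood in none of the Sbp windows. AGAACA was on the opposite strand at -64 in 1 of the Sbp windows, and CCAAT was at -146 in another and, on the opposite strand, at -209 in Pbsn. Of 32851 windows in the same table, 13.6% held TATAAA, 37.4% CCAAT and 19.0% AGAACA, so that each match is a description of letters that many promoters share.

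The second kind of sequence matters for counting. Sbp has a neighbour, Sbpl (Sbp-like), which lies 2905 bp away on the opposite strand of chromosome 17. The whole second exon of Sbp (106 bp) is identical in Sbpl, and its first 30 bases are shown in mm9 for both genes.
Sbp, exon 2, chr17:24079579-24079608, + strand: atgtcctggggaatgctgctggcaagtatt
Sbpl, chr17:24091634-24091663, - strand: atgtcctggggaatgctgctggcaagtatt
A read of 50 bases from this exon cannot be assigned to either gene. Of 686 such reads that fit in the exons of Sbp, 396 (57.7%) occur once in the genome, and the other 290 all have an exact copy in Sbpl. By exon these were 77 of 77 in exon 1, 0 of 57 in exon 2 and 319 of 552 in exon 3. For Tgm4, Pate4 and Msmb 100% of the reads were unique, and for Pbsn 99.5%.

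Libraries held 111077552 to 242862323 counts. Epcam, an epithelial surface marker, stood at 324 to 433 CPM (counts per 1000000, on library sizes scaled by TMM, the trimmed mean of M-values) in the 4 libraries. The 8 mTEC markers as a list summed to 12700 to 25800 CPM, against 28.8 to 55.4 for 8 thymocyte markers, 62.5 to 101 for 4 cortical epithelial markers, 13.3 to 33.3 for 7 dendritic cell and macrophage markers and 8.29 to 48.7 for 4 endothelial markers, the highest of which was in Aire-KO of experiment 2. Fibroblast markers (6 genes) summed to 101 and 77.5 CPM in WT and 261 and 238 in Aire-KO, and 3 of them were lower in WT in edgeR. None of the 8 thymocyte markers was called in edgeR, but their median log2 fold change of WT over Aire-KO was 1.28. Of these, 3 were higher in WT at an unadjusted p under 0.05 in edgeR. With the experiment as a replicate block 4 were called higher, beside 16.5% of all RefSeq IDs tested. Of the dendritic cell and macrophage markers, Cd209a and Adgre1 were higher in WT (log2 fold changes 5.25 and 3.22, adjusted p = 0.0271 and 0.0307), the first not without WT of experiment 2 (0.0546). The part of any of these cell types in the results was not tested. Counts of Aire were 87229 and 36597 in WT and 200697 and 175884 in Aire-KO. They do not check the labels, since the deleted exons are not given in the sources used here and the counts cover the whole gene.

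In WT mTEChi, 4 of the 5 genes were detected in both experiments. Per length, as RPKM (CPM per kilobase of exon), Sbp had 17.0 ± 4.12 (mean ± SD, n = 2), Tgm4 1.38 ± 0.187, Pate4 1.01 ± 0.384, Pbsn 0.13 ± 0.0594 and Msmb 0.0964 ± 0.136. The median of 27375 RefSeq IDs was 3.28 RPKM, and Sbp lay above 84.1% of them, Tgm4 above 36.2%, Pate4 above 31.9%, Pbsn above 13.7% and Msmb above 12.3%. Tgm4 and Pate4 overlapped in their WT levels (1.25 and 1.52 RPKM against 0.737 and 1.28), as did Pbsn and Msmb (0.0876 and 0.172 against 0.193 and 0), so that the order within these pairs was not beyond the spread of the libraries. The level and rank of Tgm4 are over all exons. Its last exon, which overlaps an exon of another gene (below), held 69.2% and 60.8% of its WT counts. Upstream of that exon Tgm4 had 0.549 and 0.848 RPKM in WT.

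**Figure D1:**
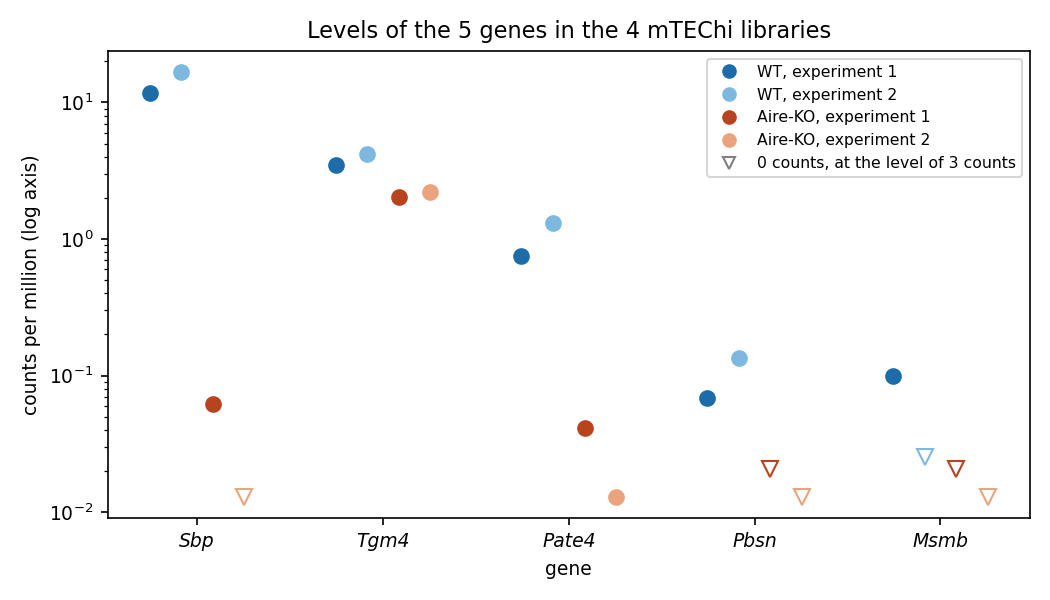
CPM (log axis) of each of the 5 genes in each library, with WT in blue and Aire-KO in orange. Open triangles mark a library with 0 counts, drawn at the level that 3 counts would have. Both WT points lie above both Aire-KO points for Sbp, Tgm4, Pate4 and Pbsn, and Msmb has counts in WT of experiment 1 alone.

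To determine which of these levels depend on the genotype, WT and Aire-KO libraries were compared with edgeR's quasi-likelihood test over all RefSeq IDs, with Benjamini-Hochberg adjustment. Sbp and Pate4 were higher in WT at an adjusted p under 0.05, and Tgm4 and Pbsn did not pass. Msmb had too few counts to enter the test. The share of all 26790 RefSeq IDs tested that were called higher in WT was 5.58% (1495 IDs), and 0.258% (69 IDs) were called lower, against 2 and 0 of the 4 members tested. With the experiment as a replicate block, 16.5% of the same IDs (4428) were called higher and 10.4% (2777) lower, against the same 2 members higher and 0 lower. At an unadjusted p under 0.05 edgeR had 3 members higher and 0 lower, for which the share over all IDs was not computed. DESeq2 called 2 of 5 members higher and 0 lower, beside 3528 higher and 565 lower of 29571 IDs. In all 4 members tested in edgeR both WT libraries exceeded both Aire-KO libraries in CPM, as did 28.4% of all IDs tested.

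Sbp showed the largest difference of the 3 members with counts in both genotypes. Its counts were 2594 and 1995 in WT and 9 and 0 in Aire-KO (experiments 1 and 2), or 11.8 and 16.7 CPM against 0.0619 and 0. The groups were far apart, with Sbp abundant in both WT libraries. The log2 fold change of WT over Aire-KO was 9.01 (SE 1.28, edgeR adjusted p = 0.0223). Within experiment 1 the ratio was 191 (95% exact interval of counting error 101 to 419), and within experiment 2, with 0 counts in Aire-KO, WT was at least 1280-fold higher than the level of 3 counts. Without the Aire-KO library of experiment 1, which held the only 9 counts of that genotype, the fitted value was 14.4.

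In the first exon of Sbp each read position was unique to the gene. Its untranslated part (77 bp in the feature table) held 121 and 80 counts in WT and 0 and 0 in Aire-KO. Counts of Sbpl, 6216 and 4865 in WT and 20 and 0 in Aire-KO, gave a log2 fold change of 9.09 (SE 1.47, edgeR adjusted p = 0.0283), or 15.68 without the Aire-KO library of experiment 1. How reads with several matches were placed is not given in the sources used here, so the division of the total between both genes is uncertain, whereas the absence of counts from Aire-KO in experiment 2 holds for both.

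Pate4 followed in size. It had 164 and 155 counts in WT and 6 and 3 in Aire-KO, or 0.749 and 1.3 CPM against 0.0413 and 0.013. All 4 libraries had reads, and the groups did not overlap. The log2 fold change was 5.27 (SE 0.96, edgeR adjusted p = 0.0365), and the ratio was 18.1 (95% exact interval 8.16 to 50.2) in experiment 1 and 99.7 (33.5 to 489) in experiment 2. The adjusted p rose to 0.0747 without the WT library of experiment 2, with a log2 fold change of 4.84, and was 1.86e-05 to 0.00488 without any 1 of the other libraries. Exons 1 and 3 of Pate4 overlap exons of Pate2, which lies on the opposite strand, by 92 and 125 bp. Reads of both genes over these stretches cannot be told apart in these libraries. In Aire-KO 5 and 3 counts of Pate4 lay in exon 3, its last, and 0 and 0 upstream of it. Whether those in exon 3 fell in the overlap was not determined. Pate2 itself had 76 and 10 counts in WT and 43 and 24 in Aire-KO, and its log2 fold change was 0.13 (SE 1.04, adjusted p = 0.97).

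Over all exons, Tgm4 had the smallest difference of these 3. Its counts were 758 and 500 in WT and 296 and 506 in Aire-KO, or 3.46 and 4.19 CPM against 2.04 and 2.2. WT exceeded Aire-KO in both experiments, by ratios of 1.70 (95% exact interval 1.48 to 1.95) and 1.91 (1.68 to 2.16). The log2 fold change was 0.85 (SE 0.45), which did not pass the test (edgeR adjusted p = 0.371).

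The counts of Tgm4 were distributed unequally along the gene. Tgm4 lies on the + strand of chromosome 9 (mm9, 122943857 to 122976679) and has 14 exons, the last of which (122975850 to 122976679, 830 bp) contains the 3′ UTR. Upstream of the last exon there were 233 and 196 counts in WT and 17 and 12 in Aire-KO. In the last exon there were 524 and 304 in WT and 279 and 494 in Aire-KO. The upstream exons thus differed widely between genotypes, and the last exon differed far less.

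In RPKM, the upstream exons had 0.549 and 0.848 in WT and 0.0603 and 0.0269 in Aire-KO, and the last exon had 2.89 and 3.08 in WT and 2.32 and 2.60 in Aire-KO. The last exon makes up 29.9% of the length of Tgm4 and took 69.2% (95% exact interval 65.8 to 72.5) and 60.8% (56.4 to 65.1) of its counts in WT, but 94.3% (91.0 to 96.6) and 97.6% (95.9 to 98.8) in Aire-KO. Across 18273 RefSeq IDs with at least 100 counts in each library, the median share was 51.9% to 58.1% in the 4 libraries. Per length, the last exon of Tgm4 held 5.28 and 3.64 times the reads of its upstream exons in WT. In Aire-KO this ratio was 38.5 and 96.6, and the median over those IDs was 1.32 to 1.66 in the 4 libraries.

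A fit of the upstream counts alone, chosen after the parts had been seen, gave a log2 fold change of 4.12 for Tgm4 (SE 0.69, edgeR adjusted p = 0.0215). In this fit 6.61% of 22738 RefSeq IDs were called higher in WT. The ratio of WT to Aire-KO upstream of the last exon was 9.10 (95% exact interval 5.56 to 15.9) in experiment 1 and 31.5 (17.6 to 62.0) in experiment 2, and in the last exon it was 1.25 (1.08 to 1.45) and 1.19 (1.03 to 1.37). The log2 fold change of the last exon relative to that of the upstream exons was -3.77 (SE 0.56, unadjusted p = 0.000114 in edgeR's interaction of part and genotype), which had an adjusted p of 0.144. Of 21521 RefSeq IDs so tested, 0.00929% (2 IDs) were called lower in the last exon in WT.

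The library kit does not mark strand. All 830 bp of the last exon of Tgm4 lie inside the last exon of a transcript of Zdhhc3, a palmitoyltransferase gene on the - strand (122975278 to 122979736). Only 1 of 11 GENCODE M1 transcripts of Zdhhc3 has this exon, and it is annotated as a target of nonsense-mediated decay. The coding transcript Zdhhc3-003 ends 6585 bp short of Tgm4. Reads of both genes over this exon cannot be told apart in these libraries. Zdhhc3 had 7250 and 5421 counts in WT and 4687 and 9421 in Aire-KO, with a log2 fold change of 0.10 (SE 0.37, adjusted p = 0.933). Whether the Zdhhc3 counts include the shared exon was not determined here. The counts come without positions for their single Zdhhc3 ID, whose last exon, of 6012 bp, has the length of none in GENCODE M1. The annotation that the paper provides for counting was not used.

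**Figure D2:**
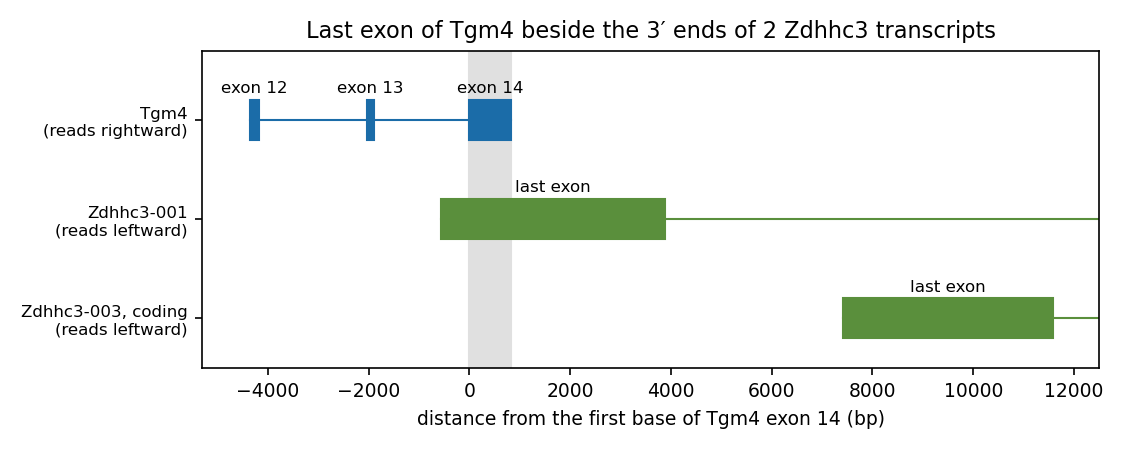
The 3′ part of Tgm4 and the last exons of 2 Zdhhc3 transcripts, drawn to scale by distance in bp from the first base of exon 14 of Tgm4. Boxes are exons, lines are introns and the grey band marks exon 14, which lies wholly inside the last exon of Zdhhc3-001 and outside that of the coding Zdhhc3-003.

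In Pate4 and Sbp, both parts were nearly without counts in Aire-KO, and the interaction of part and genotype was -1.85 (SE 1.64, adjusted p = 0.957) and -0.88 (SE 0.88, adjusted p = 0.957) on the log2 scale. Pate4 had 16 and 14 upstream counts in WT and 0 and 0 in Aire-KO, and 144 and 120 counts in the last exon in WT against 5 and 3. Without the last exon, WT was at least 3.54-fold and 9.0-fold higher in experiments 1 and 2, and the adjusted p was 0.0652 with a fitted log2 fold change of 7.13 (SE 1.69). Sbp had 519 and 447 upstream counts in WT and 1 and 0 in Aire-KO, and 1940 and 1487 counts in the last exon against 8 and 0. Its log2 fold change without the last exon was 9.89 (SE 0.93, edgeR adjusted p = 0.00735). None of the members has a part beyond a proximal polyadenylation site in the feature tables.

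**Figure D3:**
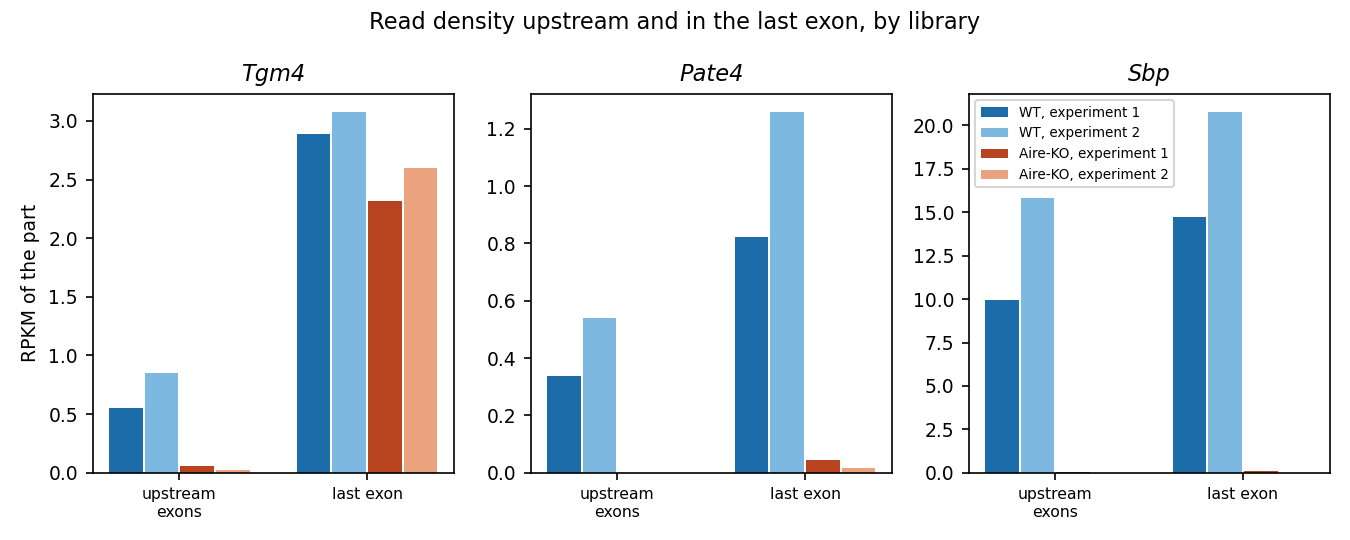
Read density in RPKM of the exons upstream of the last exon and of the last exon itself, for Tgm4, Pate4 and Sbp, with 1 bar for each library and an axis of its own for each gene. In Tgm4 the last exon of Aire-KO stands at 2.32 and 2.60 while its upstream exons are at 0.0603 and 0.0269, and in Pate4 and Sbp both parts are near 0 in Aire-KO.

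Pbsn was rare and was seen in WT alone. It had 15 and 16 counts in WT and 0 and 0 in Aire-KO, or 0.0685 and 0.134 CPM. At these depths 0 counts allow up to 0.0206 and 0.0130 CPM in Aire-KO, and against 3 counts per library the WT mean was at least 6.02-fold higher. The test did not reach the threshold (edgeR adjusted p = 0.0864). The 6 and 16 counts upstream of the last exon were joined by 7 in the last exon in experiment 1 and 0 in experiment 2.

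Msmb was at the edge of detection. It had 22 counts in WT of experiment 1, 14 of them upstream of the last exon and 8 in it, and 0 in the other 3 libraries. The WT libraries thus differed from each other, 0.1 CPM in experiment 1 against 0 counts, which allow up to 0.0252 CPM, in experiment 2. Within experiment 1, WT was at least 4.87-fold higher than the level of 3 counts in Aire-KO. A difference between genotypes was not detectable at this depth. Without the filter on low counts, the edgeR adjusted p was 0.35.

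**Figure D4:**
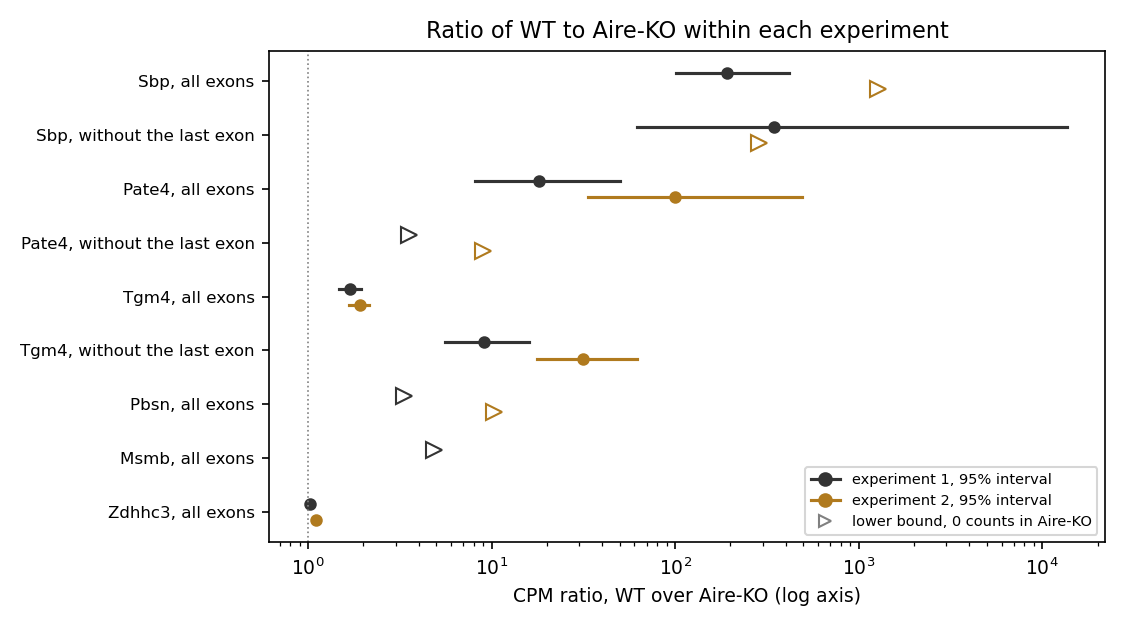
Ratio of WT to Aire-KO in CPM within each experiment (log axis), over all exons and, for Sbp, Pate4 and Tgm4, without the last exon. Points have 95% exact intervals of counting error, and open triangles are lower bounds against 3 counts where Aire-KO had 0. Tgm4 moves from 1.70 and 1.91 over all exons to 9.10 and 31.5 without the last exon, and Zdhhc3 lies at 1.03 and 1.11.

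The 5 genes lie on 4 chromosomes, and the genes on either side of each were compared in the same fit. In that fit 5.58% of all RefSeq IDs tested were called higher in WT and 0.258% lower. Around Sbp (chromosome 17, mm9, 24079342 to 24087147, + strand) 3 of 4 neighbours were higher in WT. Besides Sbpl these were Dcpp2 and Dcpp3, which encode demilune cell and parotid proteins of salivary glands. Dcpp2 had 1191 and 1191 counts in WT and 0 and 0 in Aire-KO, at least 458-fold higher (edgeR adjusted p = 0.0176). Dcpp3 had 1414 and 1395 counts against 5 and 4, a log2 fold change of 8.47 (SE 0.74, adjusted p = 0.0176). Dcpp genes are near-identical copies of each other, and the division of reads among them is uncertain. Prss30, a serine protease gene, had a log2 fold change of 1.65 (SE 0.57, adjusted p = 0.155).

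Around Pbsn (chromosome X, 75083240 to 75098962, - strand), Gm14744 had 61 and 35 counts in WT and 0 and 0 in Aire-KO, and 5430402E10Rik had 66 and 29 against 0 and 0. Both rose in WT, by at least 17.0-fold and 16.2-fold (edgeR adjusted p = 0.0434 and 0.0449). Neither was called without the WT library of experiment 1 (adjusted p = 0.0644 and 0.097) or of experiment 2 (0.0797 and 0.067). On the other side, Prkx, a protein kinase gene, had a log2 fold change of -0.70 (adjusted p = 0.502), and Cldn34-ps had no counts.

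The 11 genes tested around the other 3 members gave no call in edgeR (0 at an unadjusted p under 0.05, and 0 in DESeq2). With 5.58% of all IDs called higher, 0 of 11 lies near the share over all IDs. Next to Tgm4, Kif15 (a kinesin), Tmem42, Zdhhc3 and Exosc7 (an RNA exosome subunit) had log2 fold changes of 0.49, -0.39, 0.10 and -0.04. Beside Msmb (chromosome 14, 32955212 to 32971556, + strand), Dph3, Oxnad1, Ncoa4 and Timm23 had -0.06, -0.15, 0.12 and 0.24. Ncoa4, a ferritin receptor of autophagy, starts only 1495 bp from the end of Msmb and stood at 67.7 to 106 CPM in the 4 libraries. Pate4 (chromosome 9, 35414678 to 35419520, - strand) is flanked by Pus3 and Hyls1, with -0.37 and 0.71, and lies within the span of Pate2. Pate3, of the same family, had 4 and 14 counts in WT and 0 and 0 in Aire-KO and was not tested.

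Relatives of the members were examined as lists, beside a median log2 fold change of -0.031 over all RefSeq IDs tested, of which 5.58% were called higher and 0.258% lower. The other fits called more of all IDs. DESeq2 had 3528 higher and 565 lower of 29571, and the replicate block had 16.5% higher and 10.4% lower. In the lists of seminal vesicle, Pate, other prostate and transglutaminase genes, 0 genes were lower in WT at an unadjusted p under 0.05 in edgeR, and 0 were called lower by DESeq2 or with the replicate block. Of 14 proteins of the seminal vesicle and allied glands 13 were tested. In edgeR 5 rose in WT and none fell (7 rose in DESeq2 and 7 with the replicate block). The median of the 13 fitted values was 5.69. Those of Svs2, Svs5, Svs6 and Sval3, which had 0 counts in both Aire-KO libraries, depend on the prior count of the fit. Against 3 counts per library, Svs6 and Sval3 were at least 5.11-fold and 7.1-fold higher in WT. With such bounds in place of these fitted values the median would be lower. Sva had no counts in any library. Svs2, the main protein of the copulatory plug and a substrate for Tgm4, had 365 and 50 counts in WT and 0 and 0 in Aire-KO (at least 61.9-fold higher, or 24.9-fold without WT of experiment 1, edgeR adjusted p = 0.0359). Svs5 had 87 and 48 against 0 and 0 (at least 23.7-fold, adjusted p = 0.0368). Svs4, a further seminal vesicle secretion, had 255 and 425 counts in WT and 0 and 8 in Aire-KO (log2 fold change 6.87, SE 1.29, adjusted p = 0.0376, and a fitted 11.57 without Aire-KO of experiment 2). Sval1 had 364 and 202 against 8 and 2 (5.78, SE 0.99, adjusted p = 0.0326). Spink1, a trypsin inhibitor of pancreas and seminal vesicle, was the most abundant, with 11038 and 19996 counts in WT and 1270 and 2628 in Aire-KO (3.43, SE 0.65, adjusted p = 0.0385).

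Of 12 other Pate genes that had an ID, 7 were tested, 1 rose in WT and none fell, with a median of 1.21 (2 rose in DESeq2 and 2 with the replicate block). Pate12 rose, with 150 and 150 counts in WT and 1 and 6 in Aire-KO (log2 fold change 5.73, SE 1.0, edgeR adjusted p = 0.0334, and 0.0634 without WT of experiment 2). Of 9 other products of prostate epithelium 3 rose and none fell, with a median of 1.73 (5 rose in DESeq2 and 5 with the replicate block, and 2 without WT of experiment 2). Beside Sbpl these were Defb50, a beta-defensin, with 94 and 84 counts in WT and 0 and 0 in Aire-KO (at least 33.7-fold, adjusted p = 0.0336), and Azgp1, zinc-alpha-2-glycoprotein, with 555 and 475 against 73 and 117 (2.69, SE 0.55, adjusted p = 0.0449, and 0.162 without WT of experiment 2).

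Of 8 androgen and prostate lineage regulators 2 rose and none fell, with a median of 0.25 (2 were lower in DESeq2 and 3 with the replicate block). Hoxb13, a homeobox gene of prostate development, had 987 and 1125 counts in WT and 6 and 9 in Aire-KO (log2 fold change 7.42, SE 0.71, edgeR adjusted p = 0.0176). Hoxd13, a homeobox gene of the urogenital tract and limb, had 161 and 32 against 0 and 0 (at least 29.8-fold, adjusted p = 0.0403, and 15.9-fold with an adjusted p of 0.0795 without WT of experiment 1).

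Among 8 relatives of Tgm4, transglutaminases and their inactive homologue Epb42, 1 rose in WT and none fell, with a median of 0.58, beside 5.58% of all IDs called higher (2 rose in DESeq2 and 4 with the replicate block). This was Tgm7, with 785 and 866 counts in WT and 82 and 221 in Aire-KO (log2 fold change 2.83, SE 0.60, edgeR adjusted p = 0.0495, and 0.125 without WT of experiment 2). None of the 8 mTEC markers was called in either direction in edgeR (median -0.07, 0 at an unadjusted p under 0.05 and 0 in DESeq2), whereas 2 were lower in WT with the replicate block and 1 was higher without Aire-KO of experiment 2. Of the 6 fibroblast markers, Col1a2 (-1.97), Col3a1 (-1.79) and Dpt (-2.08) were lower in WT on the log2 scale (edgeR adjusted p = 0.0434, 0.0487 and 0.0404). Of the list, 1 was called without WT of experiment 1, 0 without WT of experiment 2, 3 without either Aire-KO library, 5 with the replicate block and 4 in DESeq2.

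**Figure D5:**
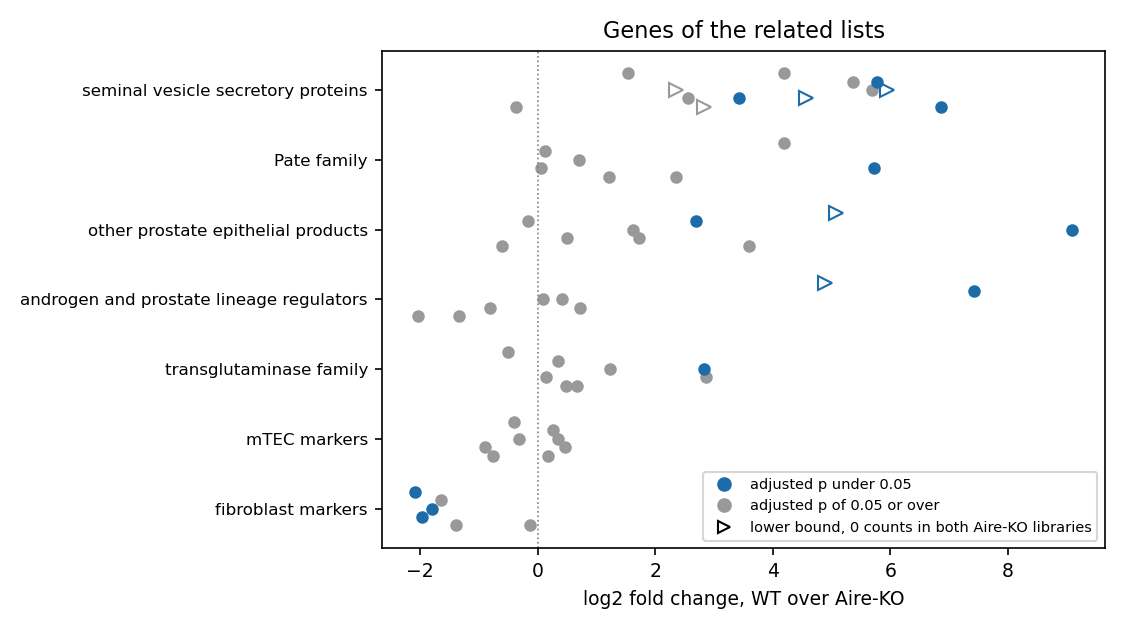
Log2 fold change of WT over Aire-KO for each tested gene of 7 lists, with genes at an adjusted p under 0.05 in blue and the others in grey. Open triangles are lower bounds for genes with 0 counts in both Aire-KO libraries. The 5 blue points of the seminal vesicle list and the 2 of the regulators lie above 3, and the mTEC markers lie within 1 of 0.

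Transcripts of Xist and of Y-linked genes were both present in each pool. Xist, transcribed from the inactive X chromosome, stood at 381 and 140 CPM in WT and 1570 and 133 in Aire-KO. Ddx3y, a Y-linked gene, had 58.1 and 14 CPM in WT and 33.4 and 7.85 in Aire-KO. The other Y-linked genes had 12.1, 4.90, 7.70 and 5.27 CPM (Kdm5d), 27.4, 11.9, 15.7 and 9.38 (Eif2s3y) and 19.9, 7.66, 13.3 and 4.40 (Uty) in WT of experiments 1 and 2 and Aire-KO of experiments 1 and 2. None of the 5 was called in edgeR (0 at an unadjusted p under 0.05 and 0 in DESeq2), and 1 was higher in WT with the replicate block. Without 1 library, 1 was called lower in WT without WT of experiment 1 or Aire-KO of experiment 2, and 1 higher without Aire-KO of experiment 1. Both kinds of transcript were higher in experiment 1 than in experiment 2 in each genotype, whereas Sbp, Tgm4, Pate4 and Pbsn had their higher WT level in experiment 2. The part of sex in the levels of the members was not tested.

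The profile of each member over the 4 libraries was compared with those of all genes by the distance between centred log2(CPM + 0.1) values, which depends on that pseudocount for rare genes. Closest to Sbp were Cyp1a2 (a liver cytochrome, distance 0.179), Prss34 (a mast cell protease, 0.259) and Pgc (progastricsin of the stomach, 0.341). Closest to Pate4 were Pou1f1 (a pituitary transcription factor, 0.107), Slc22a2 (a kidney cation transporter, 0.141) and Gkn3 (a gastrokine, 0.142). Pbsn was nearest to Gm9871 (0.033), Olfr33 (an olfactory receptor, 0.045) and Scgb2b2 (a secretoglobin, 0.045), each with 16 or 17 counts per WT library and 0 in Aire-KO. Tgm4 over all exons was nearest to Slc6a8 (the creatine transporter, 0.071), Gm17660 (0.076) and Vgf (a neuropeptide precursor, 0.076), and Msmb to Cux2 (a homeobox gene of neurons, 0.117), A830082K12Rik (0.128) and Nxnl1 (a photoreceptor gene, 0.165). Gm17660 had 13 and 11 counts in WT and 0 and 0 in Aire-KO, unlike Tgm4. Cux2 had 620 and 173 against 206 and 353, unlike Msmb. Among the members themselves, Tgm4 and Pbsn were closest (0.237) and Msmb and Sbp farthest apart (6.406). Since Pbsn and Msmb are rare, this order depends on the pseudocount. These distances rest on 4 libraries and carry no test.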

How the data were processed

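Total RNA of sorted mTEChi was polyA-selected and sequenced with a TruSeq kit that does not mark strand. The authors brought reads to single 50 bp reads, passed them through the CASAVA filter, aligned them with Bowtie 1.0.0 to the mm9 genome and used bedtools to count those wholly inside an exon of RefSeq genes. These deposited raw counts are given per RefSeq ID and per transcript part (5′ UTR, internal exons, 3′ UTR up to and beyond a proximal polyadenylation site), with no normalization. The handling of reads with several matches is not given in the sources used here.

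From these counts, CPM and RPKM were computed on library sizes scaled by TMM (factors 0.8604 to 1.144). Genotypes were compared in edgeR 4.0.16 (quasi-likelihood test, filterByExpr, no covariate besides genotype) over all RefSeq IDs, with p-values adjusted by Benjamini and Hochberg and a threshold of 0.05. SE is the log2 fold change over the root of F. Zeros were set against 3 counts per library. Intervals are exact and cover counting error only. DESeq2 1.42.0 was an alternative, others being other scalings, filters, IDs, transcript parts, a block for experiment, and leaving out each library. Exons came from GENCODE M1 (mm9), names and promoter windows from RefSeq (GRCm38.p6), whose coordinates were not mixed with mm9. Uniqueness was an exact search of mm9 on both strands. R 4.3.3, Python 3.11.15, numpy 2.4.6, pandas 2.3.3, scipy 1.17.1 and numba 0.67.0 were used.

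The experiment pairs the libraries, because titles and methods name a replicate experiment, and the deviations of its libraries from their group means correlated at 0.534 over 26790 IDs. The libraries of a genotype correlated at 0.953 (WT) and 0.964 (Aire-KO) in log CPM. With 2 pools per genotype, p-values measure the spread between these pools.

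The members and lists were chosen with earlier results of these data known. Named genes were the members, the called genes of each list (otherwise the 2 with most counts), the 2 nearest genes on either side, the 3 nearest profiles, Aire and the sex-linked genes. Single values of some list genes are not reported here.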

Additional observations from a re-analysis of the deposited data

How the results depend on the processing

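The log2 fold changes of Sbp, Pate4, Pbsn and Tgm4 were recomputed under 50 alternatives in all, of which 47 kept direction and side of the threshold, 3 changed side and 0 changed direction. With the counts upstream of the last exon alone, an alternative chosen after seeing the data, Tgm4 passed (4.12) and Pate4 no longer did (7.13). Leaving out each library, log2 fold changes ranged from 7.83 to 14.4 for Sbp, 4.6 to 6.22 for Pate4 (4.84 and not called without the WT library of experiment 2), 6.77 to 7.4 for Pbsn and 0.71 to 0.9 for Tgm4. With the experiment as a replicate block, values were 9.12, 5.29, 7.26 and 0.85, and no call of a member changed. Fitted values of Pbsn depend on the prior count. Msmb failed the filter, so that it has no reference value; DESeq2 gave an adjusted p of 0.533. Pbsn and Msmb did not enter the fit of IDs with at least 50 counts. WT levels in RPKM moved by less than 1 SD in 10 of 10 recomputations, which used library sizes alone or counts summed over transcript parts. For Msmb the SD (0.136) exceeds the mean (0.0964), so that this says little. Levels without the last exon were not among the recomputations. Upstream of it Tgm4 had 0.549 and 0.848 RPKM in WT, against 1.38 ± 0.187 over all exons.

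Of all RefSeq IDs, 1495 were higher in WT in the fit of the report, against 2470 with library sizes alone, 3528 with DESeq2 and 4428 with the replicate block, and from 1524 to 3664 without 1 library. Those lower in WT were 69, against 565 with DESeq2, 143 without a filter and 2777 with the replicate block, and from 66 to 521 without 1 library. The cause was not tested. The higher IDs were 3664 and 2754 without Aire-KO of experiment 1 and 2, and the lower IDs 263 without WT of experiment 1 and 150 and 521 without Aire-KO of experiment 1 and 2. Depth limits Pbsn and Msmb, for which a library of 0 counts still allows 0.0130 to 0.0252 CPM.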
